A study of Caenorhabditis elegans with 4 samples.

Results

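The paralogues cdc-48.1 and cdc-48.2 are 2 of 19985 annotated protein-coding genes of Caenorhabditis elegans, and their LIN-15B binding is described here from ChIP-seq peak lists of whole L4 larvae. The pair was chosen by peak score, since the peak at cdc-48.1 has the highest score on the nuclear chromosomes, so its score and rank are given as a description and were not tested. Every peak that touches a gene, or the 1000 bp on either side of it, was counted as a peak of that gene. The animals were mixed-sex worms of strain OP184 (unc-119(tm4063) III; wgIs184), which carry a transgene for LIN-15B with a GFP tag, and there is no second condition. The labels of replicate 3 place the tag, GFP with FLAG, at the C terminus. The 4 samples are 3 biological replicates, the last of them with 2 technical libraries that share 1 list. The labels name CGC as the source of the worms of replicates 1 and 2 and the producing laboratory as that of replicate 3. They name the antibody as lin-15B and describe the precipitated protein as eGFP-lin-15B, and do not say which of the tag and the protein the antibody binds. All larvae carry the unc-119 allele and the transgene, tissues are not separated, and the level of the tagged protein relative to the native one is not given in the sources used here. The pooled list holds the reads of the same replicates and is no independent repeat of them. The lists hold scores and positions but no read counts, so the depth is unknown.

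CDC-48, known as p97 or VCP in mammals, is a ring-shaped AAA ATPase that pulls ubiquitin-tagged proteins out of complexes and membranes. With its cofactors UFD-1 and NPL-4 it works in the degradation of misfolded proteins of the endoplasmic reticulum (ERAD), in DNA replication and in the cell cycle. In C. elegans both genes are expressed, and loss of both together is lethal to embryos while either one alone can sustain life. LIN-15B, one of the synMuv B proteins, carries a THAP zinc finger and represses germline genes in somatic cells.

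Both genes lie on chromosome II. On WBcel235 (ce11), cdc-48.1 (WBGene00007352) spans chrII:10560036-10563407 on the minus strand and cdc-48.2 (WBGene00008053) chrII:8138496-8141230 on the plus strand. Each has 1 annotated transcript with 5 exons, and their coding sequences encode 809 and 810 residues. The translated proteins share 720 of 802 aligned residues (89.8%), and the coding sequences 78.6% of aligned bases. The introns of cdc-48.1 also hold 2 snoRNA genes, C06A1.8 and C06A1.9, while cdc-48.2 holds none. Upstream of cdc-48.1 lies C06A1.6, on the same strand and separated by 704 bp. Upstream of cdc-48.2 lies ctns-1, which encodes a homologue of cystinosin, a lysosomal cystine transporter. It is transcribed away from cdc-48.2, with 1577 bp between both genes.

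The strongest nuclear peak covered the sequence just upstream of cdc-48.1 and did not reach its annotated transcript. Starts are the annotated ones here and in all windows and distances, and were not measured. It is shown on the strand of the gene, 5′ to 3′, from the genome assembly, so that it can be set beside the sequence at cdc-48.2. The next sequence holds the 250 bases directly upstream of cdc-48.2, where no list has a peak. The last one holds 100 bases on either side of the summit of the only pooled peak at cdc-48.2. Capitals mark matches to 12 motifs searched on both strands.

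cdc-48.1 peak, chrII:10563448-10563703, minus strand: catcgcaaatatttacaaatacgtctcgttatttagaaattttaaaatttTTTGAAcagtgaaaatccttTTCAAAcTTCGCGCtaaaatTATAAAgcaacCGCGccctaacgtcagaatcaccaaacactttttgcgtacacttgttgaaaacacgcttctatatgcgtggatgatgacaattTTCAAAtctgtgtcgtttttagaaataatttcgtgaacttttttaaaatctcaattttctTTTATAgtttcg
cdc-48.2 upstream, chrII:8138246-8138495, plus strand: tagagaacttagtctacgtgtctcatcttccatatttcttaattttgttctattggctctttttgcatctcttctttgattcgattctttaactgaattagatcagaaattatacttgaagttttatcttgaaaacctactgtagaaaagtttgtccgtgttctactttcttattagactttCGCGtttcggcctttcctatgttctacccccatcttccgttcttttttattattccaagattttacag
cdc-48.2 distal peak, chrII:8137337-8137537, plus strand: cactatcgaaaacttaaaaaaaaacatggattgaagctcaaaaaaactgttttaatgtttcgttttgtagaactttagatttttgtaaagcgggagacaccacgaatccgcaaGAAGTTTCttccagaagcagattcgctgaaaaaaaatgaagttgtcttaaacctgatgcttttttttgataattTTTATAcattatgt

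The cdc-48.1 peak was among the strongest in every list. Its score, the authors' signal value, was 385.4 in the list of peaks pooled over the replicates, where it ranked 2 of 8636 peaks. The peak above it, at 408.4, is mitochondrial, which puts cdc-48.1 at rank 1 on the nuclear chromosomes. In the lists of single replicates it scored 120.7 in replicate 1, 136.2 in replicate 2 and 130.5 in replicate 3. It ranked 1 of 30000 in replicates 1 and 2 and 3 of 30000 in replicate 3, behind a mitochondrial peak and the one upstream of tasp-1, the gene for the protease taspase. The list of replicate 2 holds 0 mitochondrial peaks, against 20 in replicate 1 and 29 in replicate 3. Ranks over all chromosomes are therefore not fully alike between replicates. On the nuclear chromosomes the cdc-48.1 peak ranked 1, 1 and 2 in replicates 1, 2 and 3. Of 346 optimal nuclear peaks found in all 3 replicates, 4 stood at rank 10 or better over all chromosomes in all of them. Only the cdc-48.1 peak stood at rank 3 or better in all, a cut that is its own rank in replicate 3. The best peak of tasp-1 ranked 4, 4 and 2 in replicates 1, 2 and 3.

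The margin over the next nuclear peak was small and varied in sign between replicates. The cdc-48.1 score was 1.31 times that of the next nuclear peak (tasp-1) in replicate 1, 1.05 times (nearest start Y17G9B.5) in replicate 2 and 0.883 times (tasp-1) in replicate 3. The mean ratio was 1.08 ± 0.215 (SD, n = 3), over comparison peaks that differ between lists. In replicate 3 the tasp-1 peak scored higher, so first place among the nuclear peaks was not held in every replicate. Relative to the median score of its own list, the peak scored 32.5 times as high in replicate 1, 25.6 times in replicate 2 and 37.4 times in replicate 3 (mean 31.8 ± 5.91, SD, n = 3). Its −log10 q of 1.49 in the pooled list is the highest value there and is shared by 16 peaks, so the q-value does not order them.

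At cdc-48.2 the best peak fell at a different level of each list, and the optimal list had none. The pooled list had 1 peak, with a score of 13.5 at rank 4366 of 8636, which is 0.997 times the median of that list. The highest-scoring peak of each replicate list scored 2.68 at rank 26153 in replicate 1, 9.32 at rank 1803 in replicate 2 and 2.84 at rank 21326 in replicate 3. These 3 peaks lie in different places. In replicate 1 it is distal upstream sequence, in replicate 2 the far side of the gene, where only 30 bases of the peak fall within the 1000 bp, and in replicate 3 a coding exon.

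**Figure D1:**
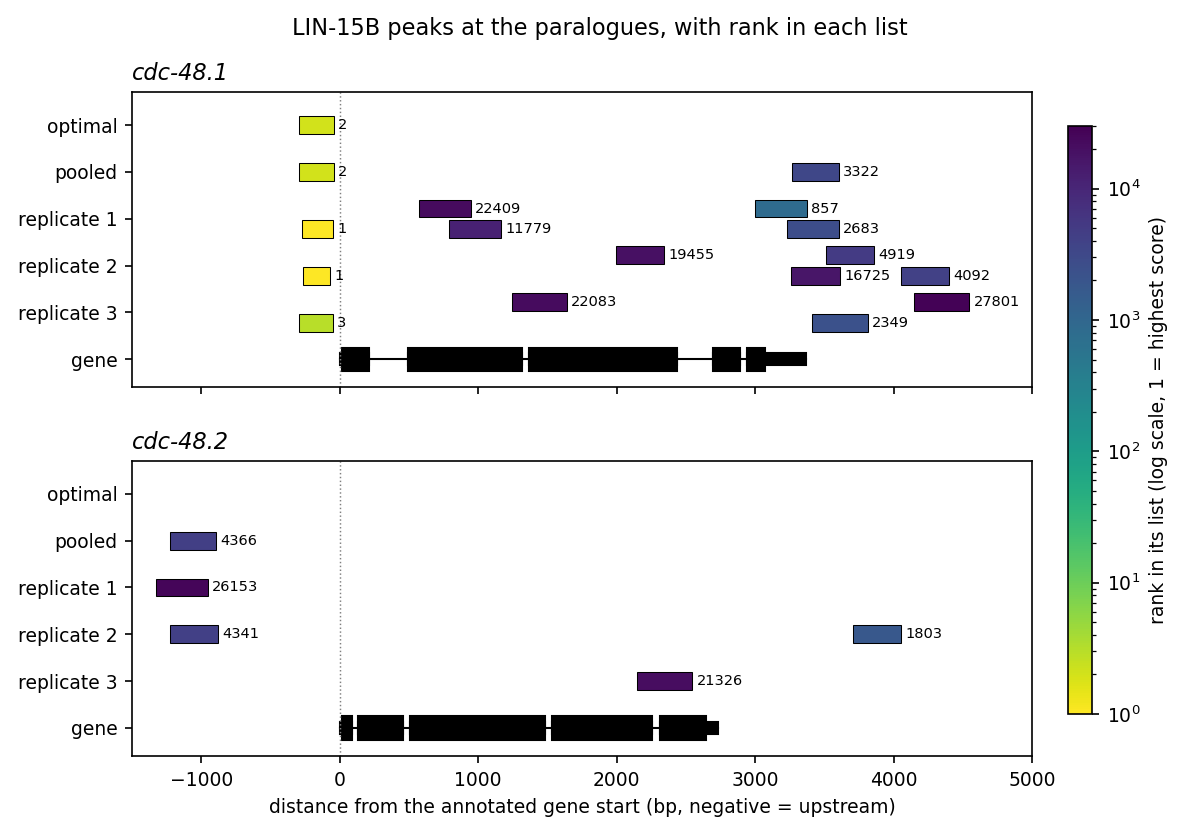
Counted peaks (bars) at cdc-48.1 (upper panel) and cdc-48.2 (lower panel) in the optimal, pooled and replicate lists, by distance from the gene start in bp, with coding exons as thick and untranslated exons as thinner black boxes. Colours and numbers give the rank in each list. The bars just upstream of cdc-48.1 carry ranks 1 to 3 in all 5 lists, and no bar lies at the start of cdc-48.2. Bars of lists with 3 or more peaks are drawn at alternating heights.

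The paralogues differed in score within each list. The highest-scoring cdc-48.1 peak had 28.5 times the score of the highest-scoring cdc-48.2 peak in the pooled list. The ratio was 45.0 in replicate 1, 14.6 in replicate 2 and 45.9 in replicate 3 (mean 35.2 ± 17.8, SD, n = 3), with cdc-48.1 higher in 3 of 3. The cdc-48.2 peak of replicate 2 is the one at the far side, with its summit beyond the 1000 bp, in the neighbouring gene ints-11, which encodes a subunit of the Integrator complex. The difference was not tested, because the pair was chosen for the score of cdc-48.1.

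The optimal list holds the 383 pooled peaks that passed the reproducibility threshold (irreproducible discovery rate, IDR). The counts given next for cdc-48.1 follow from the score it was chosen for. They are a description and no separate result. cdc-48.1 had 1 optimal peak and cdc-48.2 had 0, where 3.31% of protein-coding genes had at least 1. With the summit required in the promoter window, 500 bp upstream to 100 bp downstream of a start, cdc-48.1 again had 1 and cdc-48.2 had 0, against 1.98% of genes. The 383 highest-scoring peaks of a replicate are called top-ranked here. cdc-48.1 had one in 3 of 3 replicates and cdc-48.2 in 0 of 3, and 1.32% of genes had one in all replicates. The nearest optimal peak to cdc-48.2 began 43794 bp from the gene.

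A pooled peak of any score is common and says little. Both genes had one, and so did 39.1% of protein-coding genes. In the full lists, which reach far into background, both genes had a peak in each replicate, as did 77.7% of genes in replicate 1, 78.4% in replicate 2 and 76.3% in replicate 3.

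**Figure D2:**
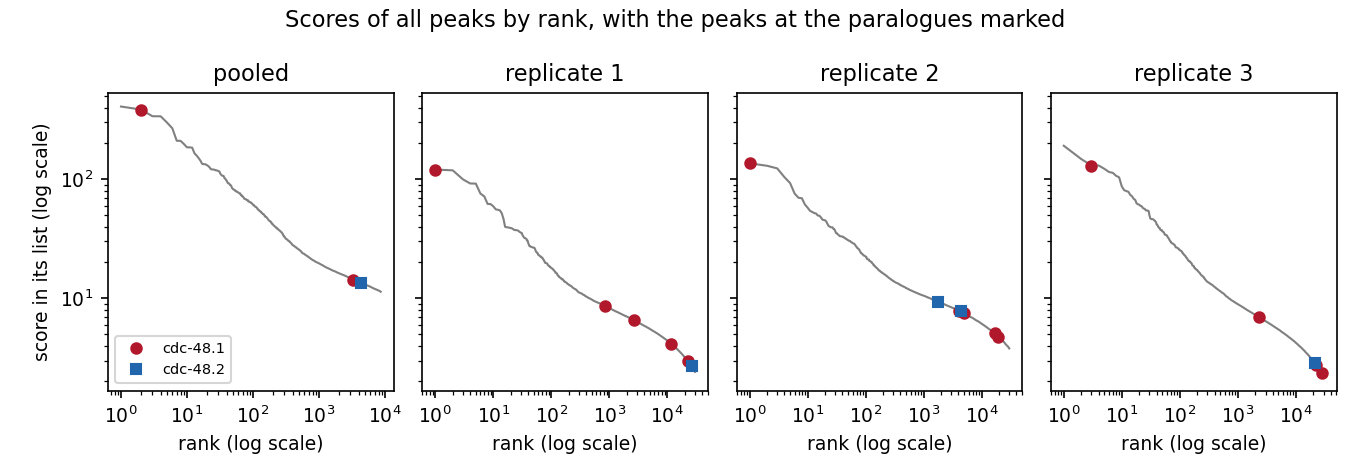
Score of every peak (grey line) against its rank, both on log scales, in the pooled list and in the lists of replicates 1, 2 and 3, with the peaks at cdc-48.1 (circles) and cdc-48.2 (squares). The first circle lies at rank 2 in the pooled list and at ranks 1, 1 and 3 in the replicates, while the other circles and all squares lie at rank 857 or lower down.

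The promoter of cdc-48.2 was empty in every list. No peak touched the window from 500 bp upstream to 100 bp downstream of its start, in the optimal, pooled or replicate lists. A summit in such a window was found for 12.5% of genes in the pooled list and for 26.2%, 26.9% and 26.7% in replicates 1, 2 and 3, so an empty window is the usual state. The closest summit to the cdc-48.2 start was 1059 bp upstream in the pooled list, 1137 bp in replicate 1, 1054 bp in replicate 2 and 1250 bp in replicate 3. The lowest scores listed were 2.41, 3.79 and 2.18 in replicates 1, 2 and 3, and the cdc-48.1 peak stood 50.1, 35.95 and 59.9 times as high in that order. A signal at the cdc-48.2 start below those lowest scores would not be listed, so it was not detectable here.

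The distal peak of cdc-48.2 is the one site there found repeatedly. In the pooled list it spans chrII:8137267-8137606 with its summit at 8137437, in intergenic sequence 1059 bp upstream of cdc-48.2. The summit is 519 bp upstream of ctns-1, which is the closer start. Its rank was 26153 in replicate 1, 4341 in replicate 2 and 23712 in replicate 3. This peak also marks the edge of the counting rule: 111 of its bases fall within 1000 bp of cdc-48.2, while the replicate 3 peak (chrII:8137046-8137445, score 2.64) lay 51 bp too far away to be counted. The nearest uncounted peak of the pooled list was 2767 bp from cdc-48.1 (score 12.1) and 2144 bp from cdc-48.2 (score 13.9).

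The cdc-48.1 peak was sharply placed. In the optimal and pooled lists it spans chrII:10563448-10563703, an intergenic interval that ends 41 bp before the annotated 5′ UTR, with its summit 178 bp upstream of the gene start. The replicate summits were 171 bp upstream in replicate 1, 169 bp in replicate 2 and 178 bp in replicate 3 (mean 172.7 ± 4.73 bp, SD, n = 3). All replicate peaks share chrII:10563474-10563675, 202 bp. The 9 bp between the outermost replicate summits compare with a median of 55.0 bp (quartiles 31.0 and 98.8) over the 346 optimal nuclear peaks found in all replicates, and 3.76% of these had 9 bp or less. Summit positions come from the same peaks as the scores, so this is a description.

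Its width set it apart from most peaks, but not from other strong ones. It was 256 bp wide in the pooled list and 226, 202 and 244 bp wide in replicates 1, 2 and 3. In the pooled list 99.7% of peaks have the same width of 340 bp, and the 29 narrower ones include cdc-48.1. These 29 have a median rank of 22.0, and 3 of them are wider than the cdc-48.1 peak. At cdc-48.2 the pooled peak has the common width.

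Elsewhere around cdc-48.1 the peaks scored far below the promoter peak. Replicate peaks numbered 5, 5 and 4 in replicates 1, 2 and 3, where the median gene has 1.0. At least as many were counted for 6.1%, 5.7% and 14.4% of protein-coding genes in that order. The cdc-48.1 peaks fell into 6 separate sites when overlapping peaks were joined. Of these sites 2 were present in all replicates, the promoter and the 3′ end, and 3 in a single replicate each. At cdc-48.2 there were 1, 2 and 1 peaks in 3 sites, of which 0 were present in all replicates within the 1000 bp. The distal site is overlapped by a peak in all 3 replicates when the replicate 3 peak that lies 51 bp too far away is included. The window is longer at cdc-48.1 (5372 bp) than at cdc-48.2 (4735 bp). Per kb this is 0.931, 0.931 and 0.745 peaks at cdc-48.1 and 0.211, 0.422 and 0.211 at cdc-48.2, where each full list averages 0.299 over the genome.

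The 3′ site of cdc-48.1 was the only one besides the promoter that the pooled list held. The pooled peak there scored 14.4 (rank 3322), 3.73% of the promoter score, at chrII:10559800-10560139, across the end of the 3′ UTR. Peaks over this stretch ranked 857 and 2683 of 30000 in replicate 1, 4919 and 16725 in replicate 2 and 2349 in replicate 3. The one at rank 857 scored 2.31 times the median of its list. Its −log10 q of 1.71 equals that of the promoter peak there, but this highest value is shared by 955 peaks of replicate 1. The promoter score was 14.1, 17.3 and 18.8 times that of the second cdc-48.1 peak in replicates 1, 2 and 3 (mean 16.7 ± 2.44, SD, n = 3). The second peak of replicate 2, at rank 4092, lay further downstream, outside this stretch. In each replicate, peaks with summits in coding exons ranked 11779 or lower, at positions that did not overlap between replicates.

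Reads of one paralogue match the other without a mismatch only where the sequences are the same. Every window of 36 bases in the cdc-48.1 and cdc-48.2 peaks and in both gene bodies occurs once in the genome. The longest run shared by both coding sequences is 35 bases, so only reads of that length or shorter could match exactly in 2 places there. Between the cdc-48.1 peak and the 1000 bp upstream of cdc-48.2 the longest shared run is 10 bases. The read length is not given in the sources used here.

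The cdc-48.1 peak held 4 of the 12 motifs. TTCGCGC, an E2F-type element, lay once, 38.0 bp upstream of the summit, and CGCG lay 2 times, inside that element and 15.5 bp upstream of the summit. TTTGAA, one form of the cell cycle homology region bound by the DREAM complex, lay 3 times, and TATAAA 2 times. The other motifs searched were TTCCCGC and TTGGCGC (E2F-type), TTCGAA (the other form of that region), GGGCGG (GC box), CACGTG (E-box), TGACGTG (unfolded protein response element), GAANNTTC (heat shock element core) and GAGAGA, and none of these letters are in the window. The cdc-48.2 distal peak held GAANNTTC and TATAAA, and the 250 bases upstream of cdc-48.2 held CGCG only.

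These matches are read against their frequency. In windows of 201 bases at summits, TTCGCGC was present in 8.77% of 365 optimal nuclear peaks and 1.64% of 8253 other pooled peaks, and in 1.84% of 29773 windows of 250 bases upstream of a start. CGCG was present in 66.6%, 20.7% and 24.65% of them in that order. TTTGAA was about as common in optimal (46.85%) as in other pooled peaks (46.9%), and TATAAA less common in optimal (13.7%) than in other peaks (21.6%). In the windows of 250 bases upstream of a start, TTTGAA (57.1%) and TATAAA (32.8%) were more common than in either set of peaks. GAANNTTC was present in 13.2% of optimal peaks, 12.6% of other pooled peaks and 15.7% of those upstream windows. A match is a description and not a site.

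The cdc-48.1 summit window is low in G+C and rich in CG for its composition. It has a G+C content of 33.8%, against a median of 41.8% (quartiles 37.3 and 45.3) in the optimal nuclear windows, of which 89.9% have the same or a higher content. Among the 20 highest-scoring nuclear windows, where the median is 44.0%, it is the lowest by a small margin, since the peak at pooled rank 18 has 34.3%. Yet it holds 12 CG dinucleotides, equal to the optimal median of 12.0 and above the 6.0 of other pooled peaks. The ratio of observed to expected CG is 2.12, against an optimal median of 1.39, and 4.66% of optimal windows reach it. Among the 20 highest-scoring windows 0 exceed it, and the peaks at pooled ranks 16 and 10 come next with 1.91 and 1.89. The cdc-48.2 distal window has 30.8% G+C, 6 CG dinucleotides and a ratio of 1.26. Its peak is not optimal. The other pooled peaks have medians of 35.8%, 6.0 and 0.957 in that order, and 24.4% of them reach a ratio of 1.26.

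**Figure D3:**
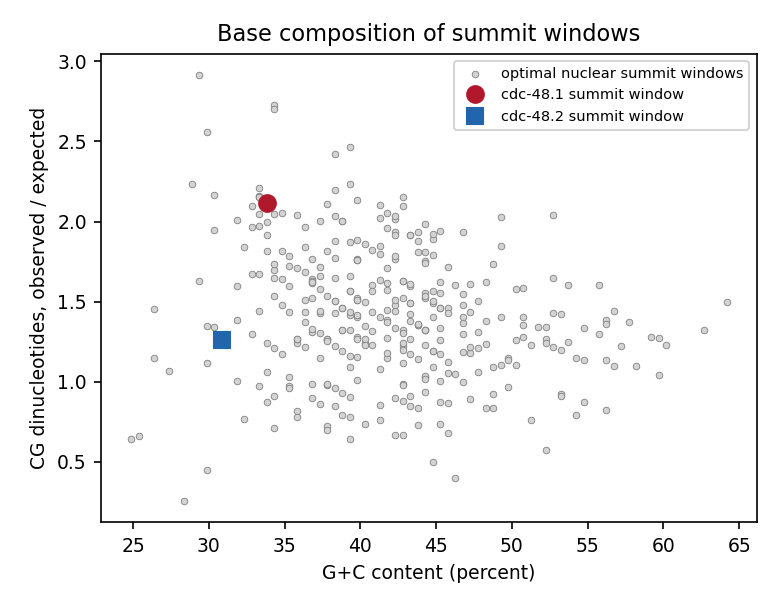
G+C content (percent) against the observed to expected ratio of CG dinucleotides in windows of 201 bases at 365 optimal nuclear summits (grey), with cdc-48.1 (circle) and cdc-48.2 (square). cdc-48.1 lies at 33.8% and 2.12, toward the low end of G+C content and the high end of the ratio.

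Fixed stretches of upstream sequence had a similar G+C content at both paralogues. The 250 bases before the start have 32.8% G+C at cdc-48.1 and 33.2% at cdc-48.2, with a median of 33.6% over all promoters. They hold 11 CG dinucleotides at cdc-48.1 and 7 at cdc-48.2, with a median of 7.0. The ratio of observed to expected CG is 1.72 at cdc-48.1, which 8.50% of promoters reach, and 1.07 at cdc-48.2, which 46.3% reach.

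Genes that work with CDC-48 were set beside all protein-coding genes. That they stand below cdc-48.1 in pooled score follows from the choice of the pair. Of 23 annotated cofactor and ERAD genes, 12 had a pooled peak (52.2%, beside 39.1% of all protein-coding genes) and 2 an optimal one (8.70%, beside 3.31%). The median best rank of the 12 was 1717.5, beside 3255.0 for all genes with a pooled peak. The 2 were ubxn-3, which encodes a UBX-domain adaptor of CDC-48, and ufd-3, whose yeast counterpart binds Cdc48 and ubiquitin. The ufd-3 peak (score 29.8, rank 363) had its summit 131 bp upstream of the gene. The best peak counted for ufd-3 ranked 547, 2522 and 296 in replicates 1, 2 and 3. The ubxn-3 peak (51.1, rank 142) was downstream of that gene and 164 bp from the start of F48A11.4. ubxn-3 had a top-ranked peak in 3 of 3 replicates.

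The other cofactor and ERAD genes named here were picked after their values were seen. Of the 23, 11 had no pooled peak, among them ufd-1, npl-4.1 and npl-4.2, whose products bring substrates to CDC-48. ufd-1 had its best replicate ranks at 15778, 16138 and 15201 in replicates 1, 2 and 3, and npl-4.1 and npl-4.2 had no peak in any list. Whether the sequence of npl-4.1 and npl-4.2 occurs once in the genome was not checked. The ERAD genes sel-1, whose product holds the ubiquitin ligase complex in the membrane, and cup-2, a derlin, also lacked a pooled peak. Other genes for UBX-domain proteins, ubxn-6 (rank 2696) and ubxn-2 (rank 3482), and for membrane ubiquitin ligases of ERAD, marc-6 (rank 950) and sel-11 (rank 3338), did have one. Of these, only the ubxn-2 peak was nearest to its own gene's start, 110 bp upstream. The closest starts were eif-1.A (316 bp) for the ubxn-6 peak, C35E7.9 (305 bp) for marc-6 and F55A11.4 (291 bp) for sel-11. ufd-2 (rank 1093), which encodes a factor that extends ubiquitin chains, and atx-3 (rank 1203), a deubiquitinase gene, had peaks 363 and 70 bp upstream of their starts that were not optimal.

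Other AAA ATPase genes were spread over the same range. Of 26, 17 had a pooled peak (65.4%, beside 39.1% of all protein-coding genes) and 4 an optimal one (15.4%, beside 3.31%). The median best rank of the 17 was 2038, beside 3255.0 for all genes with a pooled peak. These were rpt-2 (score 53.6, rank 129) and rpt-1 (33.0, rank 297), which encode ATPases of the proteasome base, atad-3 (37.0, rank 255), for a mitochondrial membrane ATPase, and ruvb-2 (36.7, rank 259), for a subunit of chromatin remodelling complexes. The rpt-1 peak was 380 bp from the start of snr-4, a closer gene. Of the 17, spg-7, lex-1, ruvb-1, rpt-4 and rpt-5 also had their best pooled peak closer to another gene's start. rpt-2 and ruvb-2 each had a top-ranked peak in 3 of 3 replicates. cdc-48.3, a more distant relative named after its values were seen, had a pooled peak at rank 4729 at its 3′ end.

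**Figure D4:**
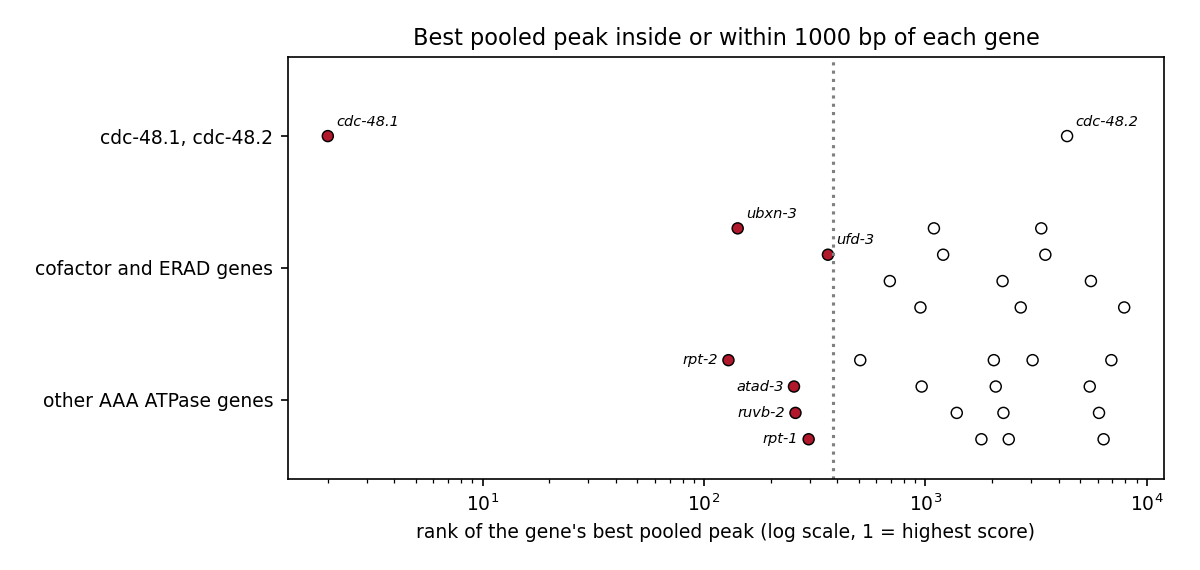
Rank of the best pooled peak of each gene on a log scale, for the paralogues, for 12 cofactor and ERAD genes and for 17 other AAA ATPase genes, with optimal peaks filled. The dotted line stands at 383. cdc-48.1 stands at rank 2 and the next gene shown, rpt-2, at rank 129, while cdc-48.2 is at rank 4366. Height within a row has no meaning.

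Likeness was measured as the Euclidean distance between log10 ranks of the best peak in the pooled list and the 3 replicate lists, over 6283 genes with a peak in all of these. Closest to cdc-48.1 were tasp-1 and K01G5.10, which share a peak (distance 0.887), and rpl-20, cyc-2.1 and Y17G9B.5, which share another (0.897). Closest to cdc-48.2 were rege-1 (0.091), chl-1 (0.112), btb-17 (0.138), srx-63 (0.160) and F53F4.4 (0.165). The replicate peaks behind the cdc-48.2 ranks lie in different places, so this is a likeness of ranks and not of a shared site. The high ranks of the genes closest to cdc-48.1 follow from its own high rank, for which it was chosen.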

How the data were processed

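Peak lists of GFP-tagged LIN-15B ChIP-seq were used as deposited. Per the files' descriptions, each replicate and the replicate pool had peaks called with a control alignment as background, and the optimal list came from IDR thresholding. The sources used here do not name the aligner, peak caller or IDR cutoff. The score is the authors' signal value per peak and was compared only within a list. The −log10 q-value is that deposited by the authors. Summits are the deposited offsets. Ranks give tied scores the better rank.

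Genes come from Ensembl release 115 on WBcel235, the same assembly as ce11, and bases from the RefSeq copy of it. Overlap needs 1 bp. No test was run, since the genes were chosen on these scores, and the members, lists and motifs were chosen with earlier results of these data known. The npl-4 and hrd-1 symbols of the cofactor list were not found in the annotation; npl-4.1, npl-4.2 and sel-11 were. Besides the paralogues, named genes were neighbours of their peaks, listed genes with an optimal peak, and the 5 genes nearest in rank to each; further listed genes were named after their values were seen. Proteins were aligned after translation of the annotated coding sequence with BLOSUM62. The counting of genes and motifs was tested on simulated data. The ce10 pooled and optimal peaks were matched by chromosome, width and score without converting coordinates, and other alternatives were a narrower or wider flank, summits in place of overlap, nuclear ranks and each replicate left out. Python 3.11.15, numpy 2.4.6, pandas 2.3.3, Biopython 1.88 and matplotlib 3.10.9 were used.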

Additional observations from a re-analysis of the deposited data

How the results depend on the processing

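Of 44 alternative values, 34 kept their side or stayed within the replicate spread, 10 moved and 0 reversed. The pooled rank of the cdc-48.1 peak was 1 on nuclear chromosomes alone and 1, tied, when ranked by −log10 q, and 2 in the ce10 list, where cdc-48.2 stayed at 4366. Without each replicate in turn, the mean ratio of cdc-48.1 to cdc-48.2 scores was 29.8 to 45.4. Leaving out a replicate also put the mean replicate rank at 1 to 2 for the cdc-48.1 peak and at 14026.5 to 24932.5 for the distal cdc-48.2 peak. Counts at cdc-48.2 depended on the window. Its 1 pooled peak became 0 within 500 bp or with the summit required inside, and its 4 replicate peaks became 1 under either rule and 7 within 2000 bp. Of the optimal peaks at list genes, those in the upper 50 percent of the list numbered 1 for AAA ATPase genes and 1 for cofactor and ERAD genes, and the promoter window left 1 cofactor and ERAD gene. The ce10 replicate lists were not used, and the optimal list gives no score ratio because cdc-48.2 has no peak there. Depth is unknown, and a site weaker than the lowest listed score cannot be told from no signal.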
